A study of Mus musculus with 57 samples.

Results

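The liver is the main organ in which surplus amino acids are taken apart, and 45 enzymes of that breakdown were followed here through 7 kinds of chemical injury in mouse liver. The 45 genes were chosen by name as enzymes of amino acid catabolism, and each matched 1 row of the 54307 gene IDs in the deposited table. They fall into 9 arms: histidine (4 genes), tyrosine (6), tryptophan (8), glycine and methionine (10), cysteine oxidation (2), serine, threonine and glyoxylate (4), proline and hydroxyproline (3), lysine and GABA (2), and branched-chain amino acids (6). All animals were male wild-type C57BL/6JJcl mice, 6 weeks old and acclimatised for 1 week, given their dose after a 12 h fast, with livers taken 24 h after dosing. Bulk RNA came from part of the perfused outer left lateral lobe, in a series made to assess deconvolution, the estimation of cell shares from whole-tissue RNA. Gavage delivered thioacetamide (TAA, 5 mice), 4,4'-methylene dianiline (MDA, 7), alpha-naphthyl isothiocyanate (ANIT, 4) or acetaminophen (APAP, 6), and 13 gavage controls (Ctrl) took 0.5% methylcellulose. Carbon tetrachloride (CCl4, 7 mice) and galactosamine (GAL, 4) were injected into the peritoneum, with 2 saline mice (CIP) as controls, and the lectin concanavalin A (ConA, 7) went into the tail vein, with 2 saline mice (CIV). Corn oil appears in the labels among the vehicles, with no word on which compound it carried, and no control group took it, so compound and vehicle cannot be told apart for a compound given in corn oil. The amount of compound given is not stated in the labels, so the 7 compounds are set side by side and not ranked by potency. Each library came from a separately labelled mouse, and p-values measure the spread between these libraries.

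Amino acid catabolism removes nitrogen and passes the carbon skeleton on to glucose, ketone bodies, one-carbon units or carbon dioxide. In liver, histidine gives up a one-carbon group to folate, phenylalanine and tyrosine are opened to fumarate and acetoacetate, and tryptophan runs down the kynurenine route to carbon dioxide or NAD. Glycine is cleaved in mitochondria, and methionine is activated to S-adenosylmethionine, whose methyl group Gnmt can transfer to glycine and whose sulfur leaves through cystathionine and cysteine. Branched-chain amino acids differ from the others in that their first transamination takes place mostly outside the liver, while the later oxidation of the ketoacids is active in hepatocytes. Many of these genes are known to be expressed by hepatocytes and to respond to fasting, glucocorticoids and glucagon.

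Column totals ran from 13826343 to 35075809 estimated counts, and values are given as CPM, counts relative to library size after TMM scaling, which sets libraries level over the bulk of genes. Because the deposited values look corrected for gene length, levels may be compared between genes. TMM factors were 1.64 to 1.77 with GAL, 1.17 to 1.499 with CCl4 and 0.471 to 0.954 with ConA, so scaling matters most there. Scaling to the plain library total moved the all-gene median log2 fold change to 0.84 with GAL, 0.53 with CCl4, -0.56 with ConA, -0.23 with ANIT and 0.22 with APAP. In 3 of the 40 treated libraries the expression of 12326 genes outside the 45 lay nearer to another treated group than to their own. The library labelled ANIT 1 lay at a root mean square log2 distance of 0.525 from the MDA mean and 0.739 from the other ANIT mice, and the library labelled MDA 1 at 0.581 from the ANIT mean and 0.696 from the other MDA mice. The library labelled APAP 1 lay at 0.914 from the ConA mean and 1.08 from the other APAP mice. All 3 were kept under their labels, and calls on the 45 that turn on them are given with and without them.

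In the 17 vehicle mice the 45 genes spanned a wide range of levels. The tyrosine enzyme Hpd stood highest, at 2737 ± 683 CPM (mean ± SD, n = 17), followed by Gnmt at 2493 ± 716 CPM, the cysteine dioxygenase Cdo1 at 1502 ± 211 CPM, Bhmt at 1292 ± 272 CPM, and Tat at 1195 ± 323 CPM. Their ranges over the mice overlapped, apart from Hpd and Tat, where the lowest Hpd mouse (1693 CPM) lay above the highest Tat mouse (1654 CPM). The genes were measured in the same mice, and their order within each mouse was not tested. At the low end stood Mccc1 at 27.4 ± 3.68 CPM, the serine dehydratase homologue Sdsl at 13.1 ± 5.37 CPM and Acmsd at 11.7 ± 4.39 CPM, a branch-point enzyme of the kynurenine route. With edgeR's quasi-likelihood test at an adjusted p under 0.05, called here, 0 of 45 genes differed between CIP and Ctrl (1 at an unadjusted p under 0.05, 0 with DESeq2), beside 0.0131% of all genes tested. Between CIV and Ctrl the count was again 0 with edgeR (2 unadjusted, 0 with DESeq2), beside 0.0263% of all genes. Among the Ctrl mice, those numbered above 4 had lower Hgd, Gstz1 and Gnmt than those numbered 1 to 4 (3 of 45 called, against 2.33% of all genes), at log2 fold changes of -0.36 ± 0.09, -0.33 ± 0.08 and -0.69 ± 0.14 (± SE here and below). These calls came to 0 or 1 when any of Ctrl 1 to 4 was left out and to 0 without the filter on low counts, and to 9 with DESeq2. With library-total scaling, which moved the all-gene median of this comparison to 0.31, 0 members were lower and 1, Gldc, was higher, and the members' median went from -0.14 to 0.17. All 4 ANIT mice carry numbers 1 to 4, so for ANIT this difference between controls enters the comparison with all 13.

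Every compound lowered a larger share of the 45 enzymes than of all genes, and rises were few. With GAL, 43 of 45 members were called lower and 0 higher, while 15.7% of all genes tested were called lower and 12.8% higher. CCl4 gave 43 lower and 0 higher (background 15.6% lower and 18.0% higher). TAA gave 40 lower and 0 higher (background 24.0% and 26.4%). For the 0 higher calls with GAL, CCl4 and TAA, the counts at an unadjusted p under 0.05 and with DESeq2 were 0 as well. APAP lowered 39 and raised 1 (background 14.6% and 17.3%), and without the library labelled APAP 1 it lowered 42 and raised 0 with edgeR (0 higher unadjusted), beside 14.5% and 14.5% of all genes. MDA lowered 27 and raised 6 (background 16.4% and 17.4%), and without MDA 1 the counts were 28 and 6 (background 17.0% and 17.8%). ConA lowered 26 and raised 1 (background 17.3% and 16.8%). ANIT lowered 19 and raised 6 (background 14.2% and 14.0%), and without ANIT 1 the counts were 17 and 5 (background 13.9% and 13.5%). The members' share of rises was close to that of all genes with ANIT and below it with the other 6 compounds. All 45 members passed the filter on low counts in each of these comparisons. The gavage compounds share the 13 Ctrl mice, and CCl4 and GAL share the 2 CIP mice, so the 7 sets of calls are not independent of each other.

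**Figure D1:**
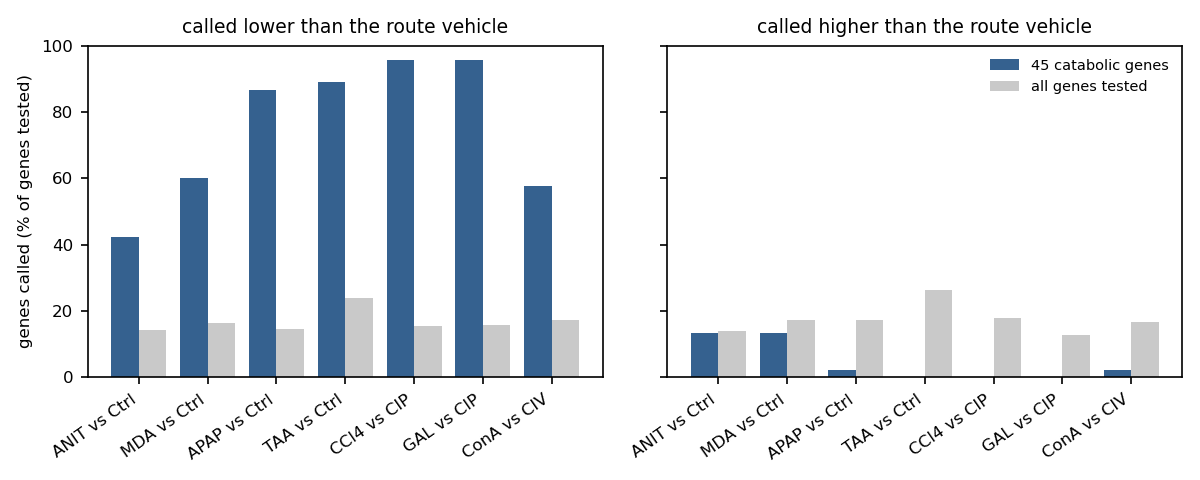
Share of the 45 amino acid catabolism genes called lower (left) and higher (right) with each compound, in percent, beside the share of all genes tested, by edgeR at an adjusted p under 0.05. The members' share of lower calls lies above that of all genes with all 7 compounds, from 19 of 45 with ANIT to 43 of 45 with CCl4 and GAL, and their share of higher calls lies near or below it.

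The median shift of the 45 members was largest with GAL and smallest with ANIT on the TMM scale, while with library-total scaling ConA had the largest and GAL the next. The median log2 fold change of the 45 members was -2.64 with GAL, -1.69 with CCl4, -1.25 with ConA, -1.09 with TAA, -1.05 with APAP, -0.55 with MDA and -0.29 with ANIT. The medians over all genes tested were 0.08, 0.10, 0.03, 0.03, 0.07, 0.03 and -0.01 in that order. With library-total scaling the members' medians were -1.85, -1.27, -1.90, -1.12, -0.89, -0.64 and -0.50, below the all-gene median in all 7. ConA, with 2 control mice, had a lower median than TAA yet fewer calls, and its calls rose when more controls entered. Against all 17 vehicle mice ConA lowered 35 members and raised 5 (background 33.7% and 34.3%). On the same 17 controls GAL lowered 45 and raised 0 by edgeR, with 0 higher at an unadjusted p under 0.05 and background 27.5% and 25.1%, and CCl4 lowered 44 and raised 0, also 0 unadjusted (background 27.2% and 26.2%). The gavage compounds changed little with 17 controls: ANIT gave 20 lower and 6 higher (background 14.5% and 13.5%), APAP 39 and 1 (15.3% and 18.1%), MDA 27 and 6 (17.1% and 17.2%). TAA gave 40 lower and 0 higher on that basis by edgeR, 0 unadjusted (24.5% and 25.2%).

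**Figure D2:**
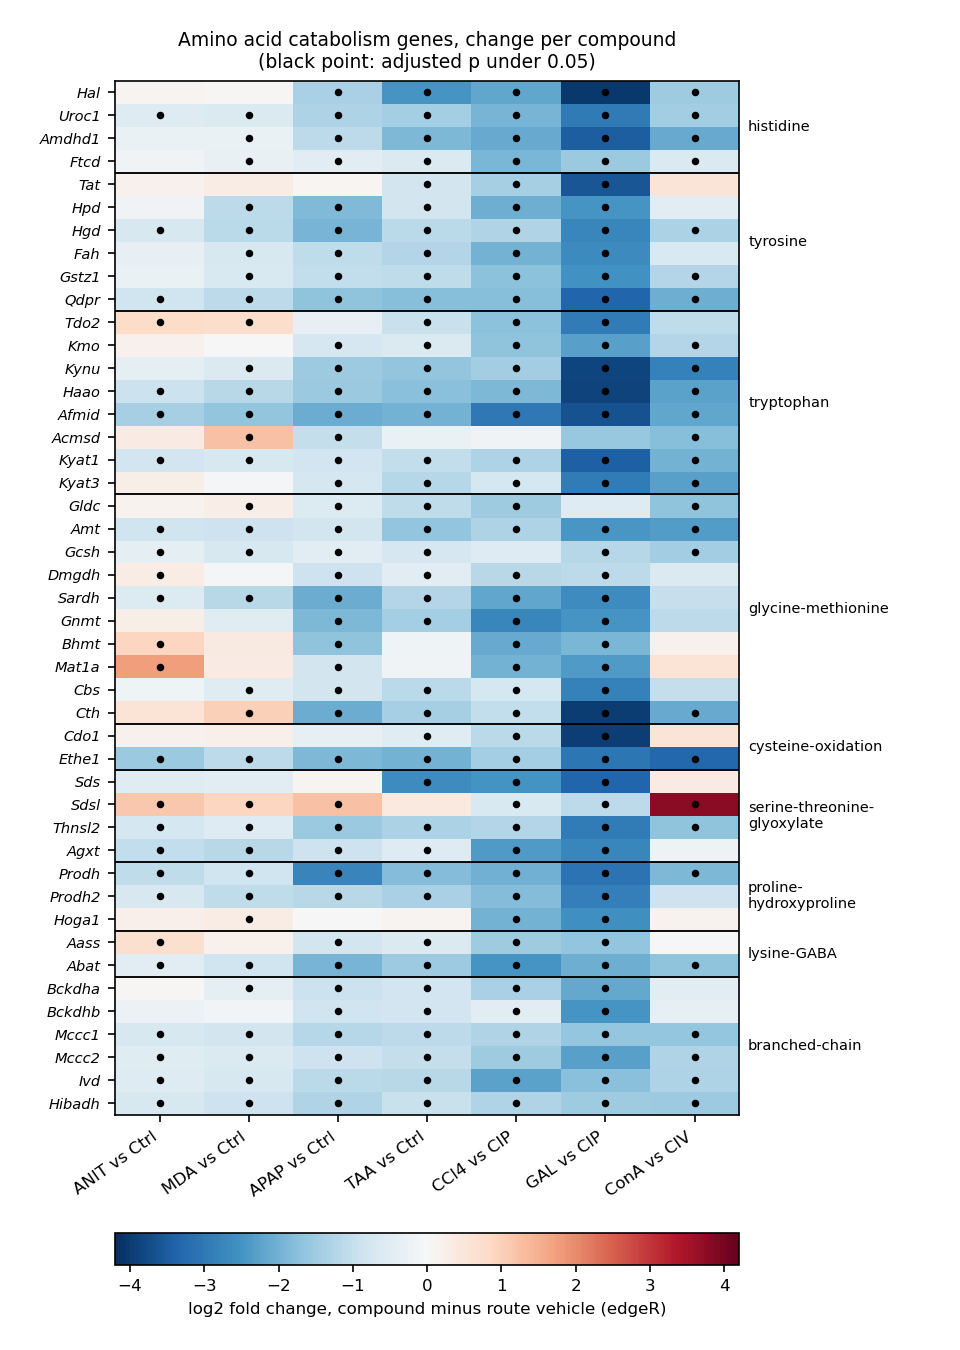
Log2 fold change against the route vehicle for each of the 45 members (rows, grouped by arm) with each of the 7 compounds (columns), with a black point where the adjusted p is under 0.05. GAL and CCl4 lower nearly every row, ANIT and MDA leave many rows near 0, and the rises stand in single rows such as Mat1a with ANIT, Sdsl with ConA and Acmsd with MDA.

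On the TMM scale, hepatocyte markers moved with these shifts for some compounds and not for others. TMM factors above 1 lower these CPM values with GAL (1.64 to 1.77) and CCl4 (1.17 to 1.499). Factors below 1 raise them with ConA (0.471 to 0.954). The size of the contrast between these compounds thus depends on the scaling, and marker sums scaled to the library total are not given here. The summed level of 8 hepatocyte markers (Alb, Ttr, Apoa1, Apoa2, Trf, Ahsg, Serpinc1 and Fgb) was 38626 to 49264 CPM with CCl4 and 41080.5 to 50131 CPM with GAL, below the 91665 to 94676 CPM of CIP, with 7 and 8 of the 8 called lower. With ANIT, APAP, MDA and TAA the sum overlapped the Ctrl range of 87216 to 167757 CPM, and 1, 2, 2 and 2 of the 8 were called lower with 1, 2, 1 and 2 higher. ConA gave 76050.0 to 143131 CPM, around the CIV range of 92511 to 93224 CPM, with 1 marker lower and 1 higher. The part of these markers in the members' falls was not tested, and in bulk tissue fewer cells of a type and less RNA per cell cannot be told apart. Markers of the 2 ends of the liver lobule also moved. The 8 pericentral markers (among them Glul, Cyp2e1 and Oat) summed to 86.4 to 3839 CPM with APAP and 616 to 1016 CPM with CCl4 against 3177 to 5407 CPM in Ctrl and 3768 to 4335 CPM in CIP, with 7 and 6 of 8 lower, and the APAP range overlapped Ctrl at its upper end. MDA and TAA gave 1268 to 5929 and 1582 to 5432 CPM, ranges that also overlap Ctrl, with 6 of 8 lower each, GAL 1809 to 2622 CPM with 4 lower, and ANIT and ConA had 3 lower each. The 6 periportal markers (among them Cyp2f2, Gls2 and Ass1) summed to 894 to 1435 CPM with GAL and 1830.3 to 2685 CPM with CCl4 against 5909.9 to 7983 CPM in CIP, with 6 of 6 lower each. APAP gave 2276 to 4419 CPM with 4 of 6 lower and TAA 2433 to 5418 CPM with 5 of 6 lower, against 5219 to 11918 CPM in Ctrl, and ANIT, MDA and ConA had 2 lower each with 2, 1 and 1 higher. Of blood cell markers, the 6 for neutrophils summed to 159.9 to 844 CPM with TAA (6 of 6 tested called higher) and 126 to 287 CPM with ConA (4 of 5 tested), against 2.17 to 60.9 CPM in Ctrl and 7.58 to 8.95 CPM in CIV, where Ly6g was at 0 in every mouse. Neutrophil sums were 25.6 to 40.5 CPM with GAL (4 of 5 tested higher) against 5.11 to 5.45 CPM in CIP, and 13.2 to 271 CPM with APAP (3 of 4), while CCl4, MDA and ANIT had 2 of 5, 2 of 4 and 1 of 4 higher. The 7 monocyte or recruited macrophage markers summed to 111 to 354 CPM with APAP (6 of 7 higher) and 134 to 209 CPM with TAA (4 of 7) against 54.1 to 189 CPM in Ctrl, and to 186 to 306 CPM with GAL (4 of 7) and 69.3 to 236 CPM with CCl4 (3 of 7) against 78.9 to 138 CPM in CIP. The 6 Kupffer cell markers summed to 28.5 to 56.1 CPM with ConA against 299.7 to 332 CPM in CIV, with 6 of 6 lower. With GAL they summed to 399 to 547 CPM, above the 363 to 386 CPM of CIP, and in the other comparisons the sums overlapped the vehicle. The genes went different ways. Clec4f was lower with 6 compounds, Csf1r with 5, Vsig4 with 2 and Timd4 with 1. Marco was higher with 6 and lower with 1, and Cd5l higher with 1 and lower with 1. Stellate or fibroblast markers summed to 126 to 281 CPM with TAA against 41.8 to 118 CPM in Ctrl, cholangiocyte markers to 91.6 to 204 CPM with ConA against 26.7 to 59.4 CPM in CIV, and endothelial markers to 51.2 to 75.7 CPM with CCl4 against 87.7 to 106 CPM in CIP. B cell markers summed to 11.7 to 20.3 CPM with TAA, 1.23 to 3.57 CPM with ANIT and 0.845 to 2.65 CPM with MDA against 4.65 to 9.38 CPM in Ctrl, and T or NK markers to 5.90 to 7.12 CPM with GAL against 4.34 to 5.03 CPM in CIP. Sums of these 5 lists overlapped the route vehicle in the other comparisons. Whether these cell changes bear on the enzymes was not tested.

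Called lower with all 7 compounds were 15 of the 45 enzymes, beside 2.62% of the 12834 genes tested in all 7 comparisons. They were Uroc1 of the histidine arm, Hgd and Qdpr of the tyrosine arm, Haao, Afmid and Kyat1 of the tryptophan arm, Amt of the glycine arm, and Ethe1, Thnsl2, Prodh and Abat of the smaller arms. The branched-chain arm supplied the other 4: Mccc1 and Mccc2, the subunits of methylcrotonyl-CoA carboxylase, Ivd, isovaleryl-CoA dehydrogenase, and Hibadh, hydroxyisobutyrate dehydrogenase. Without ANIT 1, APAP 1 and MDA 1 the count was 14 (background 2.37%): 13 of the 15 stayed, Abat and Ivd lost their call with ANIT, and Amdhd1 gained one (-0.38, adjusted p 0.0196). Against all 17 vehicle mice the count was 19 (background 4.09%), with Kynu, Gcsh, Sardh and Prodh2 added. All 45 members were called lower with at least 2 compounds (background 30.2%), and 35 were called higher with none (background 52.2%). Rises with 1 compound were seen for 8 members, with 2 for Tdo2 and with 4 for Sdsl. With the number range of the mice as a covariate, 2 of the 6 rises with ANIT were called, Mat1a (1.55, adjusted p 0.00371) and Aass (0.70, adjusted p 0.0194). The rises of Tdo2 (0.83, adjusted p 0.0589), Sdsl (0.80, adjusted p 0.0839), Bhmt (0.63, adjusted p 0.0758) and Dmgdh (0.24, adjusted p 0.192) were not, while 18 of the 19 falls with ANIT were, all but Abat. Treated and route vehicle mice did not overlap in any of the 7 comparisons for 7 members, Ethe1, Qdpr, Amt, Mccc1, Mccc2, Haao and Uroc1, while 0.99% of all genes tested showed no overlap in either direction.

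Promoters of 3 genes in this set are printed because Afmid had the largest median change of all 45, Prodh the largest fall with APAP, and Hibadh the only match to a searched motif. Of the 45 members, 38 had an entry in the promoter table from RefSeq (build GRCm38.p6), and the 250 bases before the annotated start were searched on both strands for 7 motifs of factors known in liver. Those motifs were HNF4A (CAAAGTCCA), FOXA (TGTTTAC), C/EBP (TTGCGCAA, and the longer ATTGCGCAA that holds it), the amino acid response element (TGATGNAAN), the glucocorticoid receptor site (GNACA and TGTNC, 3 bases apart) and HNF1 (GTTAAT and ATTAAC, 1 base apart). FOXA matched 1 of 38 members (2.63%), Hibadh, against 3.54% of 27025 genes. The other 6 motifs matched 0 of 38, against 0.451% of all genes for HNF4A, 0.185% and 0.0518% for the shorter and longer C/EBP letters, 3.89% for the amino acid response element, 0.44% for the glucocorticoid receptor and 0.0111% for HNF1. A match describes letters in this window and is not a binding site, and its absence says nothing of the factor. The windows lie at chr11:117825669-117825918 on the plus strand for Afmid, chr16:18089191-18089440 on the minus strand for Prodh and chr6:52640301-52640550 on the minus strand for Hibadh, in GRCm38.p6. Capitals mark the FOXA letters, which lie on the opposite strand of the Hibadh gene and so read GTAAACA, 234 bases before the start. GC content was 59.6%, 63.2% and 60.8%, with 15, 11 and 20 CG pairs in Afmid, Prodh and Hibadh.

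Afmid: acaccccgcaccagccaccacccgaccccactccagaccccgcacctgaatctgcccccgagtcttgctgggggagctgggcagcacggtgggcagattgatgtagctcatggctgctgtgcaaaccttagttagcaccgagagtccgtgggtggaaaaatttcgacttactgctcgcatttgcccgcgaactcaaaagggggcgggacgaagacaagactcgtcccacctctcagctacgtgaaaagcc
Prodh: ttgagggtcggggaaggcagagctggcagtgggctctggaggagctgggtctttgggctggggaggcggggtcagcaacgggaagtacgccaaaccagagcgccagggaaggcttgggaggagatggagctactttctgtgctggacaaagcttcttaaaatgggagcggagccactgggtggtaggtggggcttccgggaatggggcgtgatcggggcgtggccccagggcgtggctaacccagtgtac
Hibadh: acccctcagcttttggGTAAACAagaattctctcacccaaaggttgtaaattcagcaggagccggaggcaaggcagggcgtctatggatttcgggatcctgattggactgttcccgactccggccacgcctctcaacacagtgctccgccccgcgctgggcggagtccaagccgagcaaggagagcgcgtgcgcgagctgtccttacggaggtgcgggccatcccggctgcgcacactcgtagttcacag

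Medians were followed for 5 arms (histidine, tyrosine, tryptophan, glycine and methionine, and branched-chain), and the arm with the lowest of the 5 differed between compounds. With GAL the arm medians of the log2 fold change were -3.22 for histidine, -3.18 for tryptophan, -2.70 for tyrosine, -2.41 for glycine and methionine, and -1.95 for branched-chain. CCl4 gave -2.04, -1.58, -1.77, -1.40 and -1.33 in that order, and TAA gave -1.67, -1.12, -1.10, -1.09 and -0.97. Histidine had the lowest of the 5 medians with CCl4 and TAA, while with GAL the order of histidine and tryptophan turned with the mice used. Tryptophan lay below histidine with GAL against all 17 vehicle mice (-3.19 and -3.09), without GAL 2 (-3.77 and -3.50), without GAL 8 (-3.11 and -3.09) and without CIP 7 (-3.10 and -3.09). APAP gave -1.20, -0.91, -1.37, -0.83 and -1.03, and MDA gave -0.30, -0.35, -0.88, -0.29 and -0.63, with tyrosine lowest in both. ConA gave -1.49, -2.08, -0.94, -1.05 and -1.27, with tryptophan lowest. ANIT gave -0.21, -0.10, -0.32, 0.20 and -0.52. The branched-chain arm was lowest of the 5 with ANIT, but without ANIT 1 the tryptophan median (-0.44) lay just below it (-0.42). The glycine and methionine median was above 0 with ANIT and turned to -0.01 with library-total scaling, where the all-gene median was -0.23. The serine, threonine and glyoxylate arm, which also has 4 genes, had a median of -0.64 with ANIT, below all 5, and 0.06 with ConA, above all 5. These medians rest on 4 to 10 genes each, and the differences between arms carry no test.

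**Figure D3:**
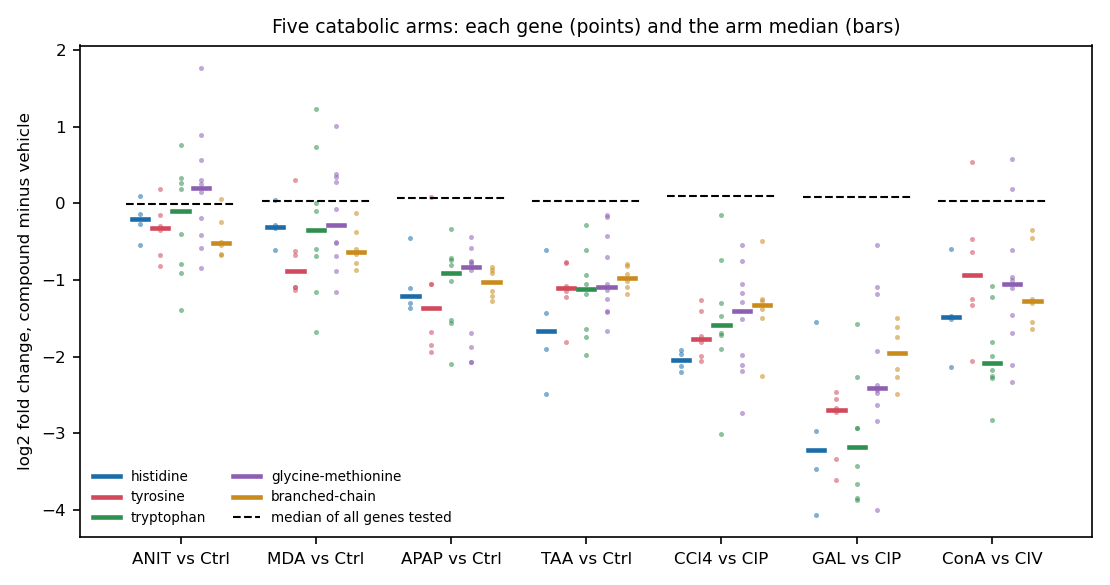
Log2 fold change of each gene (points) in the histidine, tyrosine, tryptophan, glycine-methionine and branched-chain arms with each compound against its route vehicle, with the arm median as a bar and the median of all genes tested as a dashed line. Histidine has the lowest bar with TAA, CCl4 and GAL, tyrosine with APAP and MDA, tryptophan with ConA and branched-chain with ANIT.

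Histidine breakdown fell with TAA, CCl4, GAL, ConA and APAP in all 4 of its enzymes, while ANIT lowered 1 and MDA 3 of the 4. With library-total scaling ANIT lowered 2, MDA 1 and APAP 3 of the 4. Without ANIT 1, ANIT lowered 2. Hal, histidine ammonia-lyase, takes the first step by removing ammonia to give urocanate. Hal stood at 186 to 308 (median 256) CPM in the Ctrl mice, 270.1 and 232 CPM in the CIP mice and 217 and 198 CPM in the CIV mice. Hal read 323, 269.7, 254 and 207 CPM with ANIT, 22.6 to 162 (median 94.3) CPM with APAP, 200.4 to 357 (median 238) CPM with MDA and 58.8, 31.1, 31.0, 65.6 and 24.5 CPM with TAA. Hal values after injection were 49.99 to 62.8 (median 54.4) CPM with CCl4, 35.6, 12.4, 6.52 and 9.37 CPM with GAL and 39.4 to 91.9 (median 77.5) CPM with ConA. All 5 groups other than ANIT and MDA lay wholly below their route vehicle, and 3 of the 4 GAL mice lay below every mouse of the other groups. Hal passed the test as lower with APAP, TAA, CCl4, GAL and ConA, at log2 fold changes of -1.36 ± 0.29, -2.49 ± 0.22, -2.19 ± 0.10, -4.06 ± 0.63 and -1.51 ± 0.27 in that order (adjusted p 2.0e-08 to 0.0071). Hal did not pass the test with ANIT (0.10 ± 0.13, adjusted p 0.626) and MDA (0.05 ± 0.12, adjusted p 0.804). The level with GAL, 16.7-fold below CIP, was the largest fall of any member with that compound against CIP. Cth (-4.00) and Cdo1 (-3.96) lay within the standard error of Hal, so the rank is not firm.

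Amdhd1, imidazolonepropionase, takes the third step and had the largest median change of the arm. Amdhd1 stood at 69.1 to 102 (median 85.2) CPM in the Ctrl mice, 109 and 90.6 CPM in the CIP mice and 101 and 68.5 CPM in the CIV mice. Amdhd1 read 85.4, 74.1, 61.7 and 63.0 CPM with ANIT, 15.8 to 62.4 (median 38.2) CPM with APAP, 62.3 to 87.0 (median 65.6) CPM with MDA and 39.7, 16.1, 16.4, 20.002 and 17.9 CPM with TAA. Amdhd1 values after injection were 20.2 to 26.1 (median 23.0) CPM with CCl4, 13.5, 10.4, 6.94 and 7.11 CPM with GAL and 10.6 to 26.7 (median 19.5) CPM with ConA. Treated and vehicle mice overlapped with ANIT and MDA only, and TAA 1 stood above the other 4 TAA mice. Amdhd1 passed the test as lower with APAP, MDA, TAA, CCl4, GAL and ConA, at log2 fold changes of -1.11 ± 0.21, -0.29 ± 0.09, -1.90 ± 0.19, -2.13 ± 0.11, -3.47 ± 0.29 and -2.13 ± 0.28 in that order (adjusted p 1.1e-07 to 0.012). Amdhd1 did not pass the test with ANIT (-0.27 ± 0.11, adjusted p 0.0713). Hal and Amdhd1 are neighbours on chromosome 10 with 0 protein-coding genes between them. Uroc1, urocanase, between Hal and Amdhd1 in the route, was called lower with all 7, from -0.54 ± 0.10 with ANIT to -2.97 ± 0.37 with GAL. Ftcd, which passes the formimino group to folate at the end of the route, was lower with 6 compounds, at -1.92 ± 0.15 with CCl4 and -1.55 ± 0.23 with GAL, and read -0.14 ± 0.13 with ANIT (adjusted p 0.444). Compared directly, Ftcd was higher with GAL than with CCl4 by 0.46 ± 0.16 on the log2 scale (adjusted p 0.0376), while Hal was lower, at -1.77 ± 0.37 (adjusted p 0.00274).

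In the tyrosine arm Qdpr and Hgd fell with all 7 compounds, and Tat, at the entry, with 3. Qdpr, quinoid dihydropteridine reductase, restores the pterin cofactor of aromatic amino acid hydroxylation. Qdpr stood at 390.2 to 666 (median 438) CPM in the Ctrl mice, 486 and 439 CPM in the CIP mice and 566 and 336 CPM in the CIV mice. Qdpr read 296, 323, 172 and 255 CPM with ANIT, 107 to 178 (median 139) CPM with APAP, 160.4 to 301 (median 182) CPM with MDA and 217, 126, 95.1, 98.5 and 96.8 CPM with TAA. Qdpr values after injection were 102 to 149 (median 142) CPM with CCl4, 89.2, 37.6, 29.6 and 38.0 CPM with GAL and 45.2 to 134 (median 111) CPM with ConA. In all 7 comparisons every treated mouse lay below every route vehicle mouse. Qdpr passed the test as lower with ANIT, APAP, MDA, TAA, CCl4, GAL and ConA, at log2 fold changes of -0.82 ± 0.15, -1.68 ± 0.13, -1.09 ± 0.13, -1.80 ± 0.19, -1.80 ± 0.13, -3.33 ± 0.42 and -2.05 ± 0.34 in that order (adjusted p 1.3e-07 to 0.00378). Tat, tyrosine aminotransferase and the entry to tyrosine breakdown, was lower only with TAA (-0.77 ± 0.21), CCl4 (-1.41 ± 0.25) and GAL (-3.61 ± 0.63). Its value with APAP was 0.09 ± 0.39 (adjusted p 0.889), and without APAP 1, which read 3901 CPM, it was -0.90 (adjusted p 0.00886). ConA gave 0.54 ± 0.33 for Tat against CIV (adjusted p 0.239) and 0.87 against all 17 vehicle mice, where it was called higher.

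Hpd, hydroxyphenylpyruvate dioxygenase, acts after Tat and is the most abundant of the 45. It fell with APAP (-1.85 ± 0.41), MDA (-1.09 ± 0.26), TAA (-0.77 ± 0.24), CCl4 (-2.06 ± 0.20) and GAL (-2.46 ± 0.26), and read -0.15 ± 0.24 with ANIT and -0.47 ± 0.41 with ConA without passing the test. Hgd, homogentisate dioxygenase, fell with all 7, by 3.83-fold with APAP and 6.62-fold with GAL. Gstz1, maleylacetoacetate isomerase, fell with 6 compounds and Fah, fumarylacetoacetase, which ends the route, with 5, their log2 fold changes running from -2.56 to -0.29 and from -2.67 to -0.34. Pcbd1, a partner in pterin recycling outside the 45, was lower with all 7 (-1.60 to -0.32).

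The tryptophan arm held Afmid, Haao and Kyat1, which fell with all 7 compounds, and Tdo2 and Acmsd, which rose with some. Afmid, kynurenine formamidase, acts after Tdo2 and had the largest median absolute change of the 45. Afmid stood at 62.6 to 163 (median 98.8) CPM in the Ctrl mice, 111 and 72.9 CPM in the CIP mice and 89.7 and 75.7 CPM in the CIV mice. Afmid read 33.8, 63.3, 26.7 and 29.5 CPM with ANIT, 4.39 to 38.2 (median 28.1) CPM with APAP, 17.6 to 78.3 (median 23.0) CPM with MDA and 48.4, 14.3, 18.7, 17.9 and 22.1 CPM with TAA. Afmid values after injection were 6.00 to 15.1 (median 12.0) CPM with CCl4, 14.7, 5.81, 5.46 and 5.05 CPM with GAL and 6.44 to 26.2 (median 18.7) CPM with ConA. Treated mice overlapped the vehicle with ANIT and MDA only, and MDA 1 at 78.3 CPM stood apart from the other 6 MDA mice. Afmid passed the test as lower with ANIT, APAP, MDA, TAA, CCl4, GAL and ConA, at log2 fold changes of -1.39 ± 0.24, -2.10 ± 0.38, -1.67 ± 0.27, -1.98 ± 0.27, -3.01 ± 0.24, -3.66 ± 0.47 and -2.17 ± 0.37 in that order (adjusted p 5.5e-06 to 0.0039). Without ANIT 1 and without MDA 1 the values were -1.34 and -2.10. Afmid was 12.6-fold lower with GAL and 8.03-fold lower with CCl4.

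Tdo2, tryptophan dioxygenase, opens the route ahead of Afmid and rose with 2 compounds. It rose with MDA (0.74 ± 0.20, adjusted p 0.00785) and ANIT (0.76 ± 0.22, adjusted p 0.0163), and fell with TAA (-0.93 ± 0.26), CCl4 (-1.71 ± 0.32) and GAL (-2.93 ± 0.55). The rise with ANIT did not pass the test without ANIT 1 (0.70, adjusted p 0.0502) or with library-total scaling (0.55, adjusted p 0.0799). In the vehicle mice Tdo2 varied from 296 to 1218 CPM. Kmo, kynurenine monooxygenase, was lower with 5 compounds (-2.27 to 0.19 over all 7) and Kynu, kynureninase, with 6 (-3.84 to -0.40), the ConA value of Kynu being -2.83 ± 0.40. Haao, hydroxyanthranilate dioxygenase, fell with all 7, by 1.87-fold with ANIT and 14.7-fold with GAL. The kynurenine aminotransferases differed, with Kyat1 lower in all 7 comparisons (-3.42 to -0.69) and Kyat3 in 5 (-2.93 to 0.26), its values with ANIT and MDA not passing the test.

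Acmsd diverts an intermediate of the kynurenine route away from NAD synthesis toward full oxidation. Acmsd stood at 7.21 to 22.7 (median 12.3) CPM in the Ctrl mice, 14.9 and 5.99 CPM in the CIP mice and 6.68 and 12.8 CPM in the CIV mice. Acmsd read 35.2, 9.40, 8.55 and 8.67 CPM with ANIT, 1.97 to 11.0 (median 5.72) CPM with APAP, 9.24 to 45.9 (median 25.1) CPM with MDA and 14.2, 9.25, 8.59, 7.12 and 9.50 CPM with TAA. Acmsd values after injection were 6.20 to 13.5 (median 8.69) CPM with CCl4, 6.34, 3.25, 2.18 and 3.21 CPM with GAL and 1.69 to 4.28 (median 2.30) CPM with ConA. Values were low throughout, and only the ConA mice lay wholly apart from their vehicle, below it. Acmsd passed the test as lower with APAP and ConA, at log2 fold changes of -1.01 ± 0.30 and -1.80 ± 0.36 in that order (adjusted p 0.00387 to 0.014). Acmsd passed the test as higher with MDA, at a log2 fold change of 1.23 ± 0.25 (adjusted p 7.5e-04). Acmsd did not pass the test with ANIT (0.33 ± 0.34, adjusted p 0.512), TAA (-0.28 ± 0.24, adjusted p 0.348), CCl4 (-0.15 ± 0.36, adjusted p 0.773) and GAL (-1.58 ± 0.49, adjusted p 0.0533). The library labelled ANIT 1 read 35.2 CPM and MDA 1 read 9.24 CPM, each nearer to the other compound's mice, and without them the log2 fold changes were -0.47 with ANIT (adjusted p 0.24) and 1.38 with MDA (adjusted p 6.8e-05). Qprt, which takes quinolinate toward NAD and lies outside the 45, was lower with all 7 compounds (-2.92 to -0.89).

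The glycine and methionine arm held 3 of the 6 rises with ANIT, of which Mat1a alone passed with the number range as a covariate, and all 10 of its genes fell with APAP. Gnmt, glycine N-methyltransferase, uses S-adenosylmethionine to methylate glycine and was second in level among the 45. Gnmt stood at 1326 to 4215 (median 2432) CPM in the Ctrl mice, 2378 and 2247 CPM in the CIP mice and 2758 and 1391 CPM in the CIV mice. Gnmt read 1830.0, 4219.6, 3108 and 3262 CPM with ANIT, 321 to 1715 (median 502) CPM with APAP, 1099 to 3552 (median 1670.1) CPM with MDA and 1729.5, 685, 701, 717 and 823 CPM with TAA. Gnmt values after injection were 227 to 476 (median 384) CPM with CCl4, 481, 499, 451 and 317 CPM with GAL and 366 to 1519.5 (median 1068) CPM with ConA. CCl4 and GAL mice lay wholly below CIP, while the other 5 groups overlapped their vehicle. Gnmt passed the test as lower with APAP, TAA, CCl4 and GAL, at log2 fold changes of -1.88 ± 0.33, -1.42 ± 0.26, -2.73 ± 0.20 and -2.47 ± 0.20 in that order (adjusted p 1.7e-05 to 0.00208). Gnmt did not pass the test with ANIT (0.25 ± 0.23, adjusted p 0.446), MDA (-0.51 ± 0.22, adjusted p 0.0823) and ConA (-1.10 ± 0.42, adjusted p 0.0664). The library labelled APAP 1 read 1715 CPM, above the other 5 APAP mice, and without it the value with APAP was -2.46. Without MDA 1, Gnmt was called lower with MDA (-0.77, adjusted p 0.00442).

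Mat1a makes S-adenosylmethionine from methionine in hepatocytes. Mat1a stood at 866 to 1561 (median 1175) CPM in the Ctrl mice, 1224 and 1005 CPM in the CIP mice and 1164 and 1242 CPM in the CIV mice. Mat1a read 1160.2, 5395, 3175 and 6749 CPM with ANIT, 376 to 1196 (median 596) CPM with APAP, 577 to 4551 (median 1132) CPM with MDA and 1809, 1029, 851, 600.5 and 899 CPM with TAA. Mat1a values after injection were 227 to 323 (median 293) CPM with CCl4, 306, 222, 205 and 173 CPM with GAL and 1376 to 1993 (median 1837) CPM with ConA. Among the ANIT mice 3 lay above all 13 Ctrl mice and ANIT 1, at 1160.2 CPM, lay inside their range, while MDA 1, at 4551 CPM, lay far above the other 6 MDA mice. Mat1a passed the test as lower with APAP, CCl4 and GAL, at log2 fold changes of -0.79 ± 0.21, -1.98 ± 0.13 and -2.37 ± 0.23 in that order (adjusted p 1.1e-05 to 0.00642). Mat1a passed the test as higher with ANIT, at a log2 fold change of 1.77 ± 0.25 (adjusted p 5.6e-05). Mat1a did not pass the test with MDA (0.34 ± 0.28, adjusted p 0.363), TAA (-0.15 ± 0.19, adjusted p 0.532) and ConA (0.58 ± 0.21, adjusted p 0.0563). Without ANIT 1 the rise with ANIT was 2.08 (adjusted p 1.3e-07), and without MDA 1 the value with MDA was -0.25 (adjusted p 0.2). ConA mice lay above both CIV mice, and against all 17 vehicle mice, which they overlapped, Mat1a was called higher (0.67). Mat2a, the form of the enzyme known from tissues other than adult liver and outside the 45, stood at 18.9 CPM in Ctrl and was called higher with MDA (0.46), TAA (0.95), CCl4 (1.04) and GAL (1.02).

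Bhmt, which remakes methionine from homocysteine, rose with ANIT (0.90 ± 0.20, adjusted p 0.00285) and fell with APAP (-1.69 ± 0.42), CCl4 (-2.11 ± 0.28) and GAL (-1.92 ± 0.42). Dmgdh, which demethylates the dimethylglycine that Bhmt yields, also rose with ANIT (0.30 ± 0.10, adjusted p 0.0298) and fell with 4 compounds, to -1.17 ± 0.12 with CCl4. The genes lie close together on chromosome 13, with only Bhmt2 between them. Sardh, the next enzyme of that demethylation, was lower with 6 compounds (-2.64 to -0.58 over all 7), and without ANIT 1 it did not pass the test with ANIT (-0.51, adjusted p 0.0695). Cbs and Cth carry the sulfur of homocysteine to cysteine. Cbs was lower with 5 compounds (-2.83 to -0.19), and Cth also with 5, by 16.0-fold with GAL. Cth rose with MDA (1.01 ± 0.21, adjusted p 6.6e-04), where without MDA 1 it was 1.15 (adjusted p 4.5e-05). Of the glycine cleavage system, the aminomethyltransferase Amt fell with all 7 (-2.44 to -0.76), the carrier protein Gcsh with 6 (-1.46 to -0.41) and the decarboxylase Gldc with 4, and Gldc rose with MDA by 0.28 ± 0.08 (adjusted p 0.0108). With MDA, then, Amt and Gcsh were called lower and Gldc higher on the TMM scale. With library-total scaling 1 gene of the arm was called higher with MDA, where TMM gave 2.

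**Figure D4:**
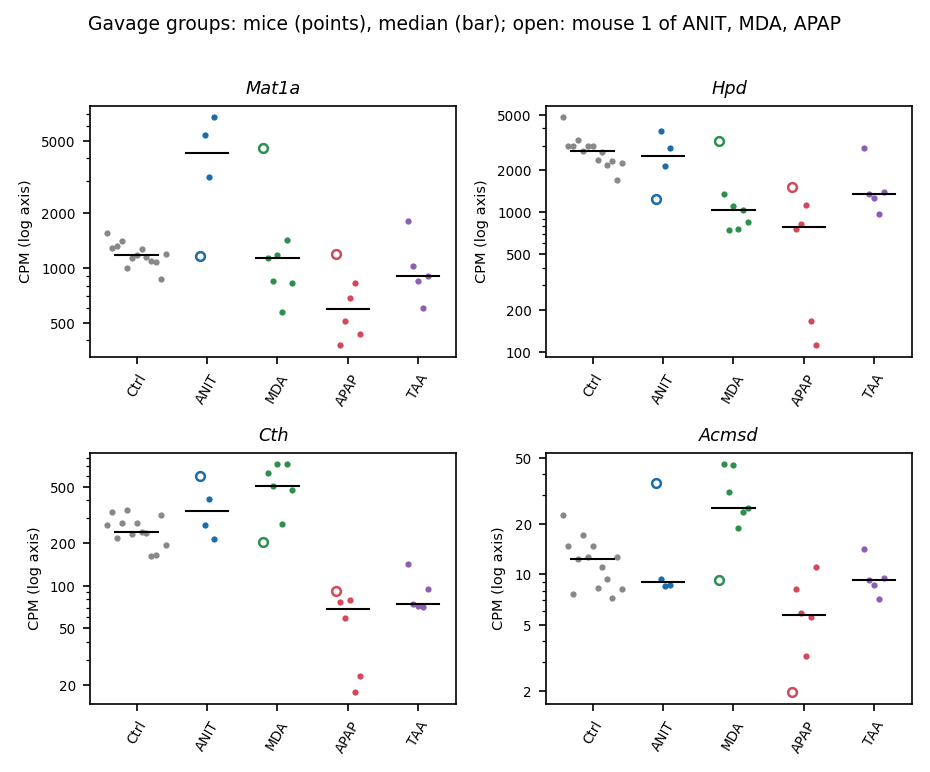
Level of Mat1a, Hpd, Cth and Acmsd in CPM on a log axis in every Ctrl, ANIT, MDA, APAP and TAA mouse, 1 point per mouse, with mouse 1 of ANIT, MDA and APAP drawn open. ANIT 1 reads like the MDA mice and MDA 1 like the ANIT mice in Mat1a (1160 and 4551 CPM by label ANIT 1 and MDA 1) and in Acmsd.

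Cysteine oxidation was lowered by all 7 compounds at Ethe1 and by 3 at Cdo1. Ethe1 is the mitochondrial persulfide dioxygenase, which removes sulfide equivalents formed from cysteine. Ethe1 stood at 87.7 to 159 (median 103) CPM in the Ctrl mice, 109.6 and 96.9 CPM in the CIP mice and 143 and 78.3 CPM in the CIV mice. Ethe1 read 64.7, 35.8, 28.4 and 19.3 CPM with ANIT, 21.4 to 39.2 (median 28.0) CPM with APAP, 29.6 to 76.1 (median 50.6) CPM with MDA and 33.6, 24.7, 23.0, 21.7 and 27.5 CPM with TAA. Ethe1 values after injection were 33.9 to 43.2 (median 38.8) CPM with CCl4, 23.1, 9.73, 9.16 and 10.9 CPM with GAL and 6.82 to 15.5 (median 11.8) CPM with ConA. No treated group overlapped its route vehicle or any of the 17 vehicle mice. Ethe1 passed the test as lower with ANIT, APAP, MDA, TAA, CCl4, GAL and ConA, at log2 fold changes of -1.55 ± 0.23, -1.89 ± 0.14, -1.11 ± 0.16, -2.00 ± 0.15, -1.43 ± 0.10, -3.05 ± 0.38 and -3.29 ± 0.29 in that order (adjusted p 2.2e-09 to 0.00365). Ethe1 was the largest fall among the members with both ANIT and ConA, at 2.93-fold and 9.79-fold. Cdo1, cysteine dioxygenase, which begins the path to taurine, fell with TAA (-0.49 ± 0.13), CCl4 (-1.14 ± 0.13) and GAL (-3.96 ± 0.74). Without APAP 1, Cdo1 was called lower with APAP too (-0.67, adjusted p 0.00129). With ConA Cdo1 read 0.53 ± 0.21 against CIV (adjusted p 0.082) and was called higher against all 17 vehicle mice (0.66). The sulfur enzymes Tst and Suox, outside the 45, were lower with all 7 (-2.50 to -0.95 and -3.23 to -0.71).

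The serine, threonine and glyoxylate arm held the 1 member called higher with 4 compounds, Sdsl, whose rises with ANIT, APAP and MDA did not pass in every alternative fit. Sds, serine dehydratase, turns serine to pyruvate for glucose synthesis. Sds stood at 191 to 513 (median 395) CPM in the Ctrl mice, 465 and 319.6 CPM in the CIP mice and 365 and 232 CPM in the CIV mice. Sds read 189.9, 301, 191 and 388 CPM with ANIT, 157 to 1236 (median 238) CPM with APAP, 216 to 355 (median 262) CPM with MDA and 98.9, 41.0, 39.6, 56.7 and 61.0 CPM with TAA. Sds values after injection were 60.3 to 98.1 (median 65.9) CPM with CCl4, 86.9, 24.0, 28.2 and 26.1 CPM with GAL and 138 to 556 (median 442) CPM with ConA. TAA, CCl4 and GAL mice lay wholly below their vehicle, and the library labelled APAP 1, at 1236 CPM, lay above every Ctrl mouse. Sds passed the test as lower with TAA, CCl4 and GAL, at log2 fold changes of -2.63 ± 0.29, -2.52 ± 0.18 and -3.33 ± 0.55 in that order (adjusted p 4.5e-07 to 0.00841). Sds did not pass the test with ANIT (-0.52 ± 0.27, adjusted p 0.16), APAP (0.12 ± 0.36, adjusted p 0.836), MDA (-0.49 ± 0.19, adjusted p 0.0506) and ConA (0.33 ± 0.49, adjusted p 0.633). Without APAP 1, Sds with APAP was -0.74 (adjusted p 0.0215), which passed the test as lower.

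Sdsl, a homologue of Sds, is its neighbour on chromosome 5 with 0 protein-coding genes between them. Sdsl stood at 4.34 to 27.9 (median 15.2) CPM in the Ctrl mice, 12.5 and 12.0 CPM in the CIP mice and 8.61 and 3.25 CPM in the CIV mice. Sdsl read 24.3, 32.3, 30.6 and 37.8 CPM with ANIT, 10.7 to 82.6 (median 20.9) CPM with APAP, 17.6 to 35.9 (median 28.5) CPM with MDA and 24.0, 18.0, 14.3, 17.0 and 18.8 CPM with TAA. Sdsl values after injection were 6.24 to 9.90 (median 8.03) CPM with CCl4, 6.17, 6.14, 6.00 and 5.62 CPM with GAL and 66.6 to 99.9 (median 79.5) CPM with ConA. All ConA mice lay above both CIV mice and above all 17 vehicle mice, and the CCl4 and GAL mice lay below both CIP mice while overlapping the other vehicle mice. Sdsl passed the test as lower with CCl4 and GAL, at log2 fold changes of -0.66 ± 0.17 and -1.10 ± 0.17 in that order (adjusted p 0.00648 to 0.0143). Sdsl passed the test as higher with ANIT, APAP, MDA and ConA, at log2 fold changes of 1.12 ± 0.25, 1.22 ± 0.36, 0.90 ± 0.22 and 3.77 ± 0.41 in that order (adjusted p 1.5e-04 to 0.0135). Sdsl did not pass the test with TAA (0.41 ± 0.24, adjusted p 0.164). With APAP the rise rested on APAP 1, which read 82.6 CPM, and without it the value was 0.63 (adjusted p 0.141). The rise with ANIT did not pass with the number range as a covariate. With the replicate number as a block, 0 members were called higher with MDA. With ConA the rise was 13.7-fold against CIV, 2.71 on the log2 scale against all 17 vehicle mice, and 3.12 with library-total scaling. Sds and Sdsl share sequence, and how reads common to both were divided was not tested.

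Thnsl2, a threonine synthase-like protein, fell with every compound. Thnsl2 stood at 35.6 to 59.6 (median 46.0) CPM in the Ctrl mice, 47.6 and 43.1 CPM in the CIP mice and 62.5 and 41.2 CPM in the CIV mice. Thnsl2 read 38.7, 28.4, 21.9 and 23.1 CPM with ANIT, 11.1 to 20.3 (median 15.5) CPM with APAP, 26.3 to 44.7 (median 28.7) CPM with MDA and 26.5, 17.6, 14.2, 17.1 and 14.2 CPM with TAA. Thnsl2 values after injection were 16.3 to 25.1 (median 18.5) CPM with CCl4, 12.6, 4.68, 2.58 and 5.37 CPM with GAL and 10.6 to 18.4 (median 16.9) CPM with ConA. Overlap with the vehicle was limited to ANIT and MDA. Thnsl2 passed the test as lower with ANIT, APAP, MDA, TAA, CCl4, GAL and ConA, at log2 fold changes of -0.75 ± 0.14, -1.56 ± 0.13, -0.55 ± 0.11, -1.34 ± 0.15, -1.24 ± 0.14, -2.93 ± 0.54 and -1.71 ± 0.24 in that order (adjusted p 2.8e-07 to 0.0112). Agxt, which clears glyoxylate in peroxisomes by transamination with alanine, was lower with 6 compounds, from -0.54 ± 0.18 with TAA to -2.72 ± 0.24 with GAL, and read -0.21 ± 0.45 with ConA (adjusted p 0.751).

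In proline and hydroxyproline breakdown, Prodh fell with all 7 compounds, Prodh2 with 6 and Hoga1 with 2. Prodh, proline dehydrogenase, oxidises proline in mitochondria. Prodh stood at 109 to 198 (median 154) CPM in the Ctrl mice, 161 and 136 CPM in the CIP mice and 184 and 119 CPM in the CIV mice. Prodh read 83.3, 101, 50.01 and 71.8 CPM with ANIT, 9.67 to 36.7 (median 23.9) CPM with APAP, 59.6 to 125 (median 94.4) CPM with MDA and 64.8, 33.6, 34.7, 33.3 and 48.0 CPM with TAA. Prodh values after injection were 26.3 to 52.2 (median 37.1) CPM with CCl4, 30.2, 12.5, 13.4 and 16.8 CPM with GAL and 15.6 to 61.3 (median 44.8) CPM with ConA. Only the MDA mice overlapped their vehicle. Prodh passed the test as lower with ANIT, APAP, MDA, TAA, CCl4, GAL and ConA, at log2 fold changes of -1.05 ± 0.17, -2.76 ± 0.26, -0.83 ± 0.15, -1.82 ± 0.18, -2.03 ± 0.22, -3.11 ± 0.35 and -1.87 ± 0.39 in that order (adjusted p 8.0e-08 to 0.00474). The fall with APAP, 6.77-fold, was the largest of any member with that compound, and without APAP 1 it was -2.99 on the log2 scale. Prodh2, hydroxyproline dehydrogenase, was lower with 6 compounds (-2.86 to -0.69 over all 7). Hoga1, the aldolase that ends hydroxyproline breakdown, fell with CCl4 (-2.00 ± 0.10) and GAL (-2.59 ± 0.18) and rose with MDA (0.32 ± 0.08, adjusted p 0.00249). With library-total scaling the rise with MDA (0.25) did not pass the test. Values of Hoga1 with ANIT, APAP, TAA and ConA, from -0.02 to 0.20, did not pass the test.

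In the lysine and GABA arm, Abat fell with all 7 compounds and Aass with 4, though the fall of Abat with ANIT did not pass without ANIT 1 (-0.36, adjusted p 0.122) or with the number range as a covariate (-0.52, adjusted p 0.0563). Abat, GABA transaminase, is active in liver on GABA and beta-alanine. Abat stood at 87.3 to 121 (median 112) CPM in the Ctrl mice, 129 and 91.0 CPM in the CIP mice and 102 and 116 CPM in the CIV mice. Abat read 68.3, 109, 49.7 and 102 CPM with ANIT, 17.0 to 40.0 (median 26.8) CPM with APAP, 33.8 to 91.6 (median 62.9) CPM with MDA and 77.5, 23.7, 27.3, 28.9 and 26.9 CPM with TAA. Abat values after injection were 15.8 to 24.8 (median 20.1) CPM with CCl4, 45.8, 25.2, 14.7 and 27.3 CPM with GAL and 10.0 to 46.0 (median 39.0) CPM with ConA. Treated mice overlapped the vehicle with ANIT and MDA only. Abat passed the test as lower with ANIT, APAP, MDA, TAA, CCl4, GAL and ConA, at log2 fold changes of -0.43 ± 0.15, -1.96 ± 0.16, -0.82 ± 0.14, -1.52 ± 0.23, -2.47 ± 0.17, -2.05 ± 0.39 and -1.70 ± 0.42 in that order (adjusted p 1.8e-07 to 0.0393). Aass, the bifunctional enzyme that starts lysine breakdown through saccharopine, rose with ANIT (0.69 ± 0.15, adjusted p 0.00233) and fell with APAP (-0.79 ± 0.13), TAA (-0.61 ± 0.13), CCl4 (-1.51 ± 0.13) and GAL (-1.66 ± 0.19).

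**Figure D5:**
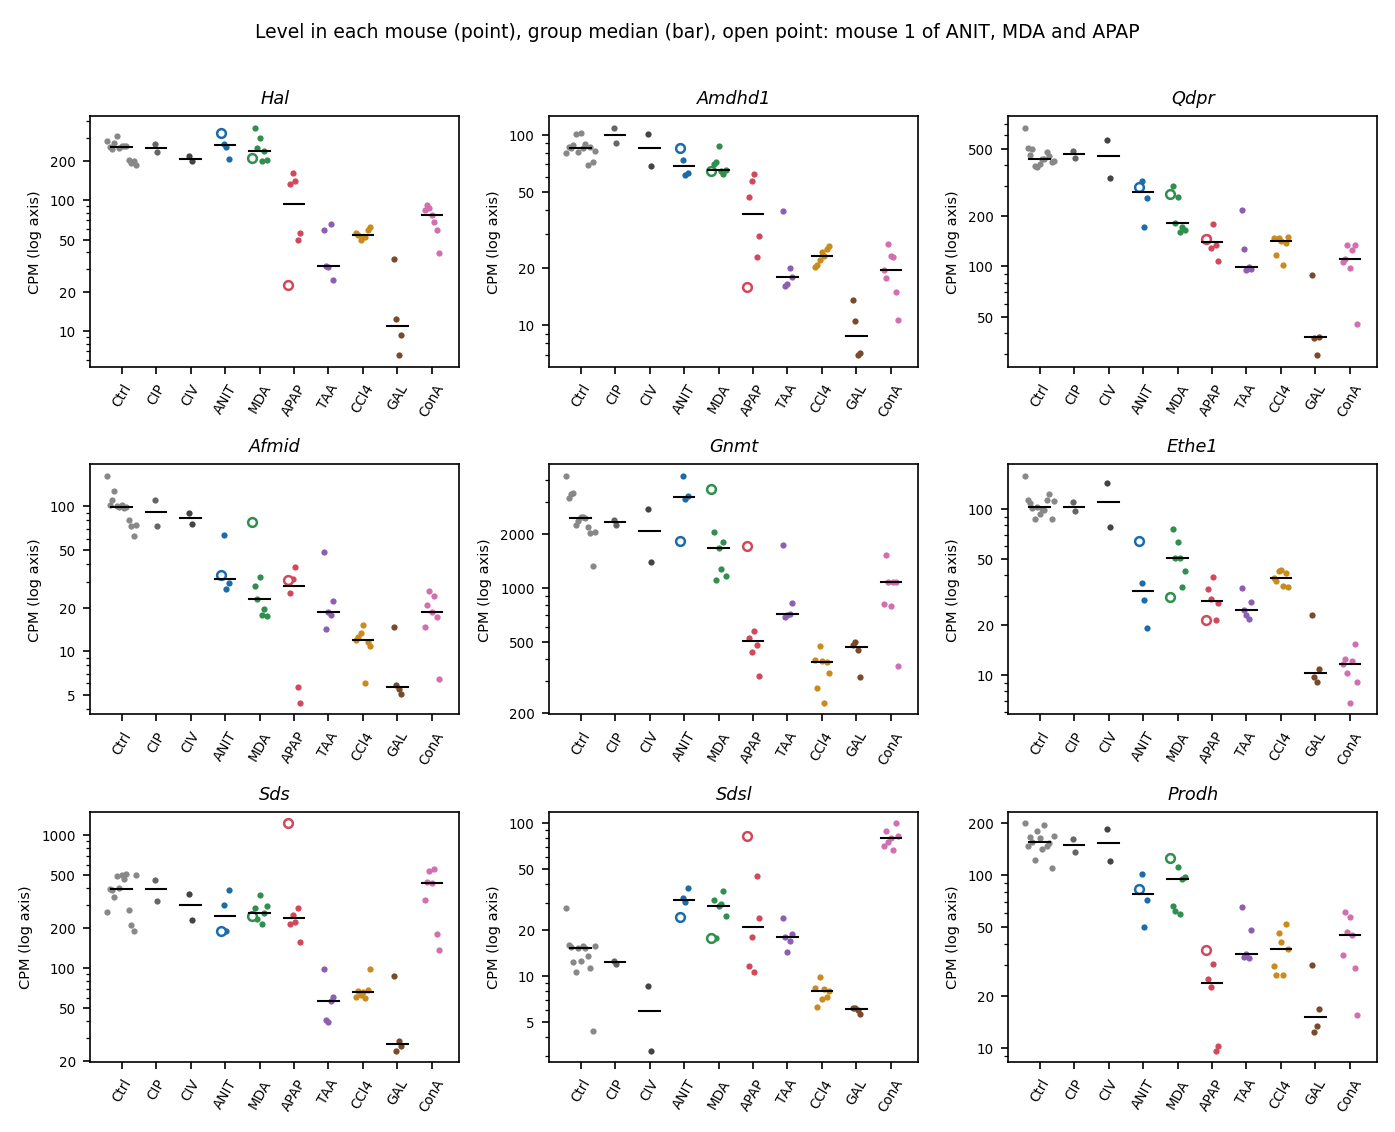
Level in CPM on a log axis of Hal, Amdhd1, Qdpr, Afmid, Gnmt, Ethe1, Sds, Sdsl and Prodh in every mouse of the 10 groups, 1 point per mouse, with mouse 1 of ANIT, MDA and APAP drawn open. Qdpr and Ethe1 lie below the vehicle in all 7 treated groups, GAL holds the lowest Hal mice, and Sdsl stands above all vehicle mice with ConA.

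The branched-chain arm had the median nearest 0 with GAL of the 5 arms followed by medians, and it held 4 of the 15 genes lower with all compounds, of which Ivd lost its call with ANIT without ANIT 1 (-0.39, adjusted p 0.108). Hibadh, in the valine route, had the largest median change of the arm, and its promoter is printed above. Hibadh stood at 112 to 192 (median 157) CPM in the Ctrl mice, 186 and 134 CPM in the CIP mice and 163 and 192 CPM in the CIV mice. Hibadh read 93.7, 124, 93.4 and 88.7 CPM with ANIT, 36.3 to 91.0 (median 64.6) CPM with APAP, 66.2 to 113 (median 79.6) CPM with MDA and 106, 66.7, 73.5, 72.0 and 81.4 CPM with TAA. Hibadh values after injection were 56.7 to 76.0 (median 65.9) CPM with CCl4, 65.1, 63.1, 52.5 and 57.9 CPM with GAL and 37.3 to 80.4 (median 61.7) CPM with ConA. Overlap with the vehicle was limited to ANIT and MDA, and with ANIT it came from ANIT 2, at 124 CPM. Hibadh passed the test as lower with ANIT, APAP, MDA, TAA, CCl4, GAL and ConA, at log2 fold changes of -0.66 ± 0.14, -1.28 ± 0.17, -0.87 ± 0.12, -0.93 ± 0.14, -1.28 ± 0.13, -1.50 ± 0.18 and -1.54 ± 0.24 in that order (adjusted p 9.3e-06 to 0.00351). Hibadh was lowered 2.42-fold with CCl4 and 2.82-fold with GAL, where Hal was lowered 4.58-fold and 16.7-fold. Ivd and the subunits Mccc1 and Mccc2, all of leucine breakdown, ran from -2.25 to -0.54, -1.64 to -0.68 and -2.27 to -0.50 over the 7 compounds. Mccc1 and Mccc2 stood at 27.4 ± 3.68 and 39.1 ± 3.97 CPM in the vehicle mice. Of the ketoacid dehydrogenase at the shared entry of the arm, Bckdha was lower with 5 compounds and Bckdhb with 4, and neither passed the test with ANIT (0.06 and -0.25) or ConA (-0.46 and -0.35). With GAL the subunits fell by 4.47-fold and 5.63-fold, and with CCl4 by 2.59-fold and 1.40-fold.

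Compounds given by the same route were then compared directly. GAL minus CCl4 gave 26 members lower and 3 higher, against 22.2% and 20.3% of all genes. With library-total scaling, where the all-gene median was 0.26, the counts were 17 lower and 6 higher. The 3 higher with GAL were Gldc (1.06 ± 0.14), Ivd (0.60 ± 0.13) and Ftcd (0.46 ± 0.16). TAA minus ANIT gave 23 lower and 0 higher by edgeR (0 higher unadjusted, 0 with DESeq2), against 11.1% and 15.1% of all genes, and 20 lower and 0 higher without ANIT 1 (10.2% and 13.9%). TAA minus MDA gave 21 lower and 0 higher by edgeR (1 higher unadjusted, 0 with DESeq2), against 14.3% and 15.8%, and 19 and 0 without MDA 1 (13.9% and 15.6%). APAP minus MDA gave 14 lower and 0 higher by edgeR (0 unadjusted, 0 with DESeq2), against 4.05% and 5.38%, and 16 and 0 without APAP 1 and MDA 1 (6.13% and 7.45%). APAP minus ANIT gave 10 lower and 0 higher by edgeR (0 unadjusted, 0 with DESeq2), against 2.35% and 3.63%, and 15 and 0 without APAP 1 and ANIT 1 (7.56% and 8.61%). With all labelled mice, the lower calls with TAA and APAP against ANIT and MDA exceeded the share of all genes in each of these pairs. Single mice moved these counts: APAP minus ANIT gave 2 lower without ANIT 2 and 3 without ANIT 4, TAA minus ANIT 12 without ANIT 2 and 38 without TAA 1, and TAA minus MDA 32 without TAA 1.

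Few members were called between TAA and APAP, or between MDA and ANIT, with all labelled mice. TAA minus APAP gave 1 lower, Sds (-2.77 ± 0.58, adjusted p 0.033), and 0 higher by edgeR (3 unadjusted, 0 with DESeq2), against 1.01% and 1.61% of all genes. Without APAP 1, TAA minus APAP gave 4 lower, Hal (-1.36 ± 0.40), Gldc (-0.67 ± 0.18), Amt (-1.13 ± 0.24) and Sds (-1.93 ± 0.27), and 1 higher, Gnmt (1.00 ± 0.29), beside 6.41% and 7.99% of all genes. MDA minus ANIT gave 0 lower and 0 higher by edgeR (6 lower and 0 higher unadjusted, 0 with DESeq2), and 0.0% lower and 0.0% higher of all 13360 genes tested. Without ANIT 1 and MDA 1, 5 were lower with MDA, namely Mat1a (-2.34 ± 0.30), Hpd (-1.58 ± 0.23), Gnmt (-1.21 ± 0.22), Sardh (-0.82 ± 0.17) and Dmgdh (-0.60 ± 0.13), and Acmsd was higher (1.85 ± 0.30). The background without these libraries was 2.47% lower and 2.12% higher, and the 1 higher call lies near that share. The libraries left out were chosen for their distance over genes outside the 45 and after the data were seen. ANIT 1 and MDA 1 each lay nearer the other group, so leaving them out widens MDA minus ANIT by construction. Over all genes the calls went from 0 to 627, so the member calls are no separate evidence of a difference. The plot of Mat1a, Hpd, Cth and Acmsd by mouse shows both libraries beside the groups they resemble in Mat1a and Acmsd. Mat1a, Hpd and Acmsd are among the genes called once both libraries were left out, so the plot is no separate support for that likeness. In Afmid, MDA 1 (78.3 CPM) lay above every ANIT mouse.

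Enzymes of the same routes outside the 45 were counted from a list of 74 genes, of which 69 or 70 were tested. They were lower and higher in 19 and 7 cases with ANIT, 42 and 5 with APAP, 27 and 6 with MDA, 44 and 8 with TAA, 49 and 9 with CCl4, 48 and 3 with GAL, and 37 and 5 with ConA. Lower calls made up 27.1% of the list with ANIT to 70.0% with CCl4 and lay above the share of all genes with all 7 compounds (14.2% and 15.6% for those named), while higher calls lay below it with all 7, the nearest being ANIT, where 7 of 70 stood beside 14.0%. Their median log2 fold changes were -0.11, -0.81, -0.28, -0.70, -1.13, -1.45 and -1.19 in that order. Among those called lower with all 7 compounds were Pcbd1, Ido2, Qprt, Gamt, Shmt1, Aldh7a1, Tst, Suox, Gcat, Agxt2, Aldh4a1 and Gls2, and Gcat is represented in the table by 2 IDs of which 1 was used. These include Aldh4a1, which acts after Prodh in proline breakdown (-2.28 to -0.89), Aldh7a1, which acts after Aass (-1.42 to -0.39), and Gls2, the liver glutaminase (-2.71 to -0.96). The same list holds enzymes of amino acid synthesis. Psat1, of serine synthesis, was higher with all 7 (2.14 to 5.64), Phgdh, the first enzyme of that route, with 5 (0.72 to 5.50 over all 7), and Asns, asparagine synthetase, with 6, its GAL value being -0.04. Hdc, histidine decarboxylase, which uses histidine for histamine, was higher with 5 compounds (0.69 to 3.40 over all 7). Any link of Hdc to Hal or to a change in cell types was not tested.

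Of 13 regulators listed, Klf15, a fasting-responsive factor known to drive amino acid catabolism genes, was lower with all 7 compounds, at -0.98 with ANIT, -1.14 with APAP, -0.78 with MDA, -3.29 with TAA, -1.68 with CCl4, -2.63 with GAL and -1.61 with ConA. Cebpa, a hepatocyte factor, was lower with 6 compounds and read 0.03 with ConA. Atf4, the factor of the amino acid response, and its target Ddit3 were higher with 6 compounds each, their GAL values being 0.12 and 0.86, and Ddit3 has 2 IDs in the table, of which 1 was used. Across the whole regulator list, lower and higher calls numbered 2 and 4 with ANIT, 5 and 2 with APAP, 2 and 3 with MDA, 6 and 4 with TAA, 6 and 2 with CCl4, 3 and 0 with GAL and 4 and 4 with ConA. For the 0 higher with GAL by edgeR, the count was 0 at an unadjusted p under 0.05 and 0 with DESeq2. For 13 genes these counts lie near the share of all genes with some compounds, such as MDA, at 15.4% lower and 23.1% higher against 16.4% and 17.4%. Amino acid uptake genes gave 1 lower and 3 higher of 11 with ANIT, 4 lower and 2 higher of 11 with APAP, 3 lower and 2 higher of 11 with MDA, 5 lower and 5 higher of 12 with TAA, 6 lower and 4 higher of 12 with CCl4, 6 lower and 3 higher of 12 with GAL and 2 lower and 6 higher of 11 with ConA. The uptake shares with MDA were 27.3% lower and 18.2% higher, against 16.4% and 17.4% of all genes, so the higher share lay near that of all genes. With ConA they were 18.2% lower and 54.5% higher, against 17.3% and 16.8%, so there the lower share lay near it. Slc3a2, the heavy chain of several exchangers, was higher with all 7 (0.74 to 3.39), Slc7a5, a light chain, with TAA, CCl4, GAL and ConA, and Slc38a3, a glutamine and histidine carrier, was lower with 6 compounds, from -0.81 with ConA to -3.12 with GAL. Whether Klf15, Atf4 or any other regulator acts on the 45 enzymes was not tested here.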

How the data were processed

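Bulk liver RNA-seq of 57 mice was analysed from 1 deposited table of estimated counts per gene, which the authors made and which holds versioned Ensembl IDs. Libraries were TruSeq stranded mRNA, read single-end, per the labels' protocols. Salmon 1.6.0, R 4.1.3 and the build GRCm39 are named in the submitters' processing notes, with no role given, and annotation release and strand setting are not given in the sources used here. Over 9252 genes each gene's lowest nonzero value decreased as its transcript got longer (slope -1.19 on log2 scales; rho -0.774, by Spearman's method across genes that are no independent replicates), so the values look length-scaled and are not whole reads, and counting intervals were not computed. A read in a short gene weighs more than in a long gene.

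Symbols came from a GENCODE M21 table (51482 of 54307 IDs matched), and promoter sequences and gene order from RefSeq GRCm38.p6, so no coordinates in the build of the files are given. Values were rounded for edgeR 4.0.16 (limma 3.58.1, data.table version 1.17.8, R 4.3.3): TMM, filterByExpr, quasi-likelihood test, two-sided, Benjamini-Hochberg adjustment over all genes tested, calls at an adjusted p under 0.05. Each comparison was fitted on its 2 groups without covariates, and standard errors derive from the F statistic. Each compound was set against its route vehicle and against all 17 vehicle mice. The test was tried on simulated data. Tables and plots used Python 3.11.15, pandas 2.3.3, numpy 2.4.6 and matplotlib 3.10.9.

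The members, gene lists and tests were chosen with earlier results of these data known. All 45 members may be named. Values per mouse are given for the member of each arm with the largest median absolute change and for each compound's largest called fall and rise (14 genes). Genes outside the 45 come from the fixed lists, and 1 gene of these lists is counted but not reported by name here. Marker lists for 11 cell types were measured, and the T or NK, B, cholangiocyte, endothelial and stellate lists had 0 to 5 of their genes called in either direction per comparison. Alternatives were DESeq2 1.42.0, library-total scaling, no filter, other controls, the replicate number as a block or covariate, leaving out mice, and, added after the data were seen, leaving out the 3 libraries nearer another group. Replicate numbers were not used as pairs in the main fits: in 0 comparisons with 3 or more shared numbers did every same-numbered pair correlate above 0.1. This rule cannot show that the numbers carry no shared block. Correlations ran from 0.008 to 0.28 for TAA against Ctrl and from -0.15 to 0.09 for MDA against Ctrl.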

Additional observations from a re-analysis of the deposited data

Results flagged for a closer look

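Of 98 tests for a mouse that stands apart within a group of 4 to 10, over the 14 genes shown by mouse, 15 were positive. Chance alone gives about 1 in 20 for a single test. The genes were measured in the same mice and chosen for large changes, so 1 library can give several positives and the tests are not independent. The library labelled APAP 1 stood above the other APAP mice in Sds (1236 CPM) and Gnmt (1715 CPM). The library labelled ANIT 1 stood above the other ANIT mice in Acmsd (35.2 CPM), and MDA 1 above the other MDA mice in Afmid (78.3 CPM).

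TAA 1 stood above the other TAA mice in Amdhd1 (39.7 CPM), Gnmt (1729.5 CPM) and Abat (77.5 CPM), and GAL 2 above the other GAL mice in Afmid (14.7 CPM) and Sds (86.9 CPM). ConA 12 stood below the other ConA mice in Qdpr (45.2 CPM), Afmid (6.44 CPM) and Mat1a (1376 CPM). Single genes stood apart in ANIT 2 (Hibadh, 124 CPM), CCl4 10 (Afmid, 6.00 CPM) and CCl4 12 (Sds, 98.1 CPM).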

How the results depend on the processing

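Of 251 single calls on members, 0 changed direction under any alternative that could be fitted. DESeq2 and the 17 controls kept all 251, while 28 lost the threshold with library-total scaling, 4 without the filter, 3 of 138 without Ctrl mice 15 to 18, and 5 of 98 without the libraries nearer another group. Leaving out CIP 7 or CIP 8 cost 15 and 10 of 86, CIV 7 or CIV 8 cost 6 each of 27, and any ANIT, TAA or GAL mouse at most 5, single mice being left out only in groups of up to 5. The CIP and CIV groups of 2 mice, and estimated counts without whole reads, limit precision, and a lone vehicle mouse is assumed to vary like the treated group. The cause of the moves below was not tested.

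With the replicate block, 58 of 181 calls were lost. The replicate block gave 9 lower and 1 higher with ANIT, 12 lower and 0 higher with APAP, and 0 higher with MDA, 0 between APAP and ANIT, between TAA and ANIT, between APAP and MDA and between TAA and APAP, and 10 between TAA and MDA. Medians with the block were -0.56 for tyrosine with ANIT, -1.05 for glycine and methionine with APAP, and -3.26 and -3.72 for tyrosine and tryptophan with GAL. No paired analysis was possible for CCl4 against CIP, ConA against CIV and GAL against CCl4 because they share fewer than 2 numbers. The number range as a covariate gave 2 higher and a tyrosine median of -0.54 with ANIT, and mice numbered above 4 alone gave -3.30 and -3.72 for tyrosine and tryptophan with GAL.

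Without the libraries nearer another group, APAP raised 0, MDA against ANIT gave 6 and TAA against APAP 5, and medians were -0.44 for tryptophan with ANIT and -1.03 for glycine and methionine with APAP. For MDA against ANIT this choice of libraries widens the contrast by construction. DESeq2 gave 3 higher with ConA, 19 between APAP and ANIT and 9 between Ctrl number ranges. All 17 controls gave 5 higher with ConA. Without the filter, APAP against MDA gave 9, TAA against APAP 0 and the Ctrl ranges 0.

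Library-total scaling gave 7 between APAP and MDA and 1 between Ctrl ranges, which was higher, where the 3 calls with TMM were lower. Its medians for histidine, tyrosine, tryptophan, glycine and methionine, and branched-chain were -1.61, -1.34, -1.16, -0.96, -0.89 with CCl4, -2.44, -1.91, -2.39, -1.62, -1.18 with GAL, -2.15, -1.59, -2.68, -1.75, -1.91 with ConA and -0.43, -0.52, -0.32, -0.0065, -0.73 with ANIT.

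Leaving out 1 mouse at a time, from the ANIT, TAA, GAL, CIP and CIV groups and Ctrl 1 to 4 only, gave 2 to 8 calls between APAP and ANIT (2 without ANIT 2, 3 without ANIT 4), 12 to 38 between TAA and ANIT (12 without ANIT 2, 38 without TAA 1), 17 to 32 between TAA and MDA (32 without TAA 1), 0 to 1 between TAA and APAP when a TAA mouse was left out (0 without TAA 3, 6, 7 or 8; 5 without APAP 1) and 0 to 1 between Ctrl ranges without any of Ctrl 1 to 4. The same gave medians of -0.44 to -0.12 for tryptophan with ANIT, -1.95 to -1.58, -1.40 to -1.01 and -1.36 to -1.01 for histidine, tyrosine, and glycine and methionine with TAA (lowest without TAA 1), -1.71 to -1.38 for tryptophan with CCl4, -3.77 to -3.06 for tryptophan with GAL, and -1.47 to -0.69 for glycine and methionine with ConA.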

Other observations

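Averaged over the 45 enzymes, the log2 difference of each mouse from the 17 vehicle mice shows how evenly a group responded. TAA 1 read -0.55 and the other 4 TAA mice -1.37 to -1.25. GAL 2 read -1.84 against -2.90 to -2.59 in the other 3 GAL mice. ConA 12 read -1.91 against -1.30 to -0.85 in the other 6. APAP 8 and APAP 11 read -1.61 and -1.65, and the other 4 APAP mice -1.09 to -0.91. CCl4 mice were close together at -1.74 to -1.43, and MDA mice ran from -0.80 to -0.12 and ANIT mice from -0.42 to 0.04, ranges that overlap the -0.18 to 0.19 of the Ctrl mice at their upper ends.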
